A study of Mus musculus with 14 samples.

Results

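The contractile and pericyte genes described here are 8 genes, taken by name from the 46517 genes with an identifier in the expression table: Acta2, Tagln, Cnn1, Myh11, Des, Actc1, Pdgfrb and Rgs5. Smooth muscle cells shorten by sliding actin over myosin, and they carry a set of proteins that bind or regulate those filaments. Pericytes are related cells that wrap capillaries; they are recruited to new vessels when endothelial cells release the ligand PDGF-B, which binds the receptor PDGFRB on the pericyte. Fibroblasts of a tumour can switch on part of the same programme, Acta2 and Tagln above all. In mice the walls of the large pulmonary veins hold heart muscle as well.

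The data are RNA sequencing of 14 lung tumours that arose in 2 mouse models of neuroendocrine small cell lung cancer. The 11 RPM tumours came from mice with Rb1 fl/fl, Trp53 fl/fl and a Cre-activated Myc (T58A) allele, of which 9 tumours had LSL/LSL and 2 had LSL/+ (RPM replicates 2 and 4), and the 3 RPR2 tumours came from mice with Rb1 fl/fl, Trp53 fl/fl and p130 fl/fl, where p130 is the product of Rbl2. Cre came in every mouse from an adenovirus with the Cgrp promoter, which neuroendocrine cells use, and no tumour was treated. Age is not given in the sources used here. The tumours were macro-dissected, and fresh or flash frozen tissue was used, so each library is a mixture of tumour cells with the host's vessels, stroma and any adjoining tissue. Fewer cells of a type and less RNA per cell cannot be told apart in such bulk libraries. RPM replicates 6 and 7, and likewise 10 and 11, share a title number; whether they come from 1 mouse is not given in the sources used here. The p-values measure the spread between these tumours.

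The table gives expression as FPKM, fragments per kilobase of transcript scaled to the mapped reads of the library, which allows levels of different genes to be set side by side. From the step size of low values, RPM libraries were estimated at 17.6 to 20.2 M mapped reads and RPR2 libraries at 21.5 to 23.1 M. A depth and its multiples give such steps alike, so the search was capped. These depths and all read numbers below hold only under that cap. In each library 12994 to 14974 genes reached an FPKM of 1. A transcript of 2 kb with 3 reads would then read 0.0743 to 0.0852 FPKM in an RPM library and 0.0649 to 0.0696 FPKM in an RPR2 library, a limit that covers counting error alone. RPR2 replicate 3 stood apart from every other library. Sftpc, the surfactant gene of alveolar type 2 cells, was at 30744 FPKM there, against 708.74 and 983.05 FPKM in RPR2 replicates 1 and 2. Replicate 3 correlated with the other RPR2 libraries at r = 0.754 and 0.777 over log2 values of all genes, which are not independent replicates. Results are therefore given with and without it. The sample codes in the labels also begin differently in the 2 models, so whatever those codes stand for and the model cannot be told apart.

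The members lie on 6 chromosomes (GENCODE M21 on GRCm38, all annotated as protein-coding). Acta2, smooth muscle alpha-actin, is at chr19:34241090-34255590 on the minus strand (ENSMUSG00000035783). Tagln, transgelin or SM22, an actin-bundling protein, is at chr9:45929619-45936058 on the minus strand (ENSMUSG00000032085), and Cnn1, calponin 1, an actin-binding inhibitor of myosin, at chr9:22099216-22109630 on the plus strand (ENSMUSG00000001349). Myh11, the smooth muscle myosin heavy chain, is at chr16:14194535-14291372 on the minus strand (ENSMUSG00000018830). Des, the muscle intermediate filament desmin, is at chr1:75360329-75368579 on the plus strand (ENSMUSG00000026208). Actc1, the alpha-actin of heart muscle, is at chr2:114047282-114053548 on the minus strand (ENSMUSG00000068614). Pdgfrb, the receptor of PDGF-B, is at chr18:61045150-61085061 on the plus strand (ENSMUSG00000024620), and Rgs5, a regulator of G-protein signalling and a widely used pericyte marker, at chr1:169655501-169695813 on the plus strand (ENSMUSG00000026678). All 8 passed the filter on low values, which asked for 3 of the 14 libraries to reach an FPKM of 1.

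Contractile genes are textbook targets of serum response factor (Srf), which binds the CArG box, CC and GG around 6 bases that are A or T, together with the coactivators myocardin (Myocd) and the myocardin-related factors (Mrtfa and Mrtfb). RefSeq promoter windows on GRCm38.p6, 250 bases before the annotated start, were at hand for 5 of the 8 members: Acta2, Cnn1, Des, Actc1 and Rgs5. A CArG box with a core of A and T alone stood in 1 of them, Actc1, against 1.47% of 32851 mouse windows of the same length. Allowing 1 other letter in the core, both actin genes held boxes, against 8.59% of the windows. The box reads the same in outline on both strands, so 1 search covers both. 

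The boxes, in capitals here, are shown because the 2 actins carry the same 10 letters CCCTATATGG and because Rgs5, the member that differed most between the models, holds none. The stretches run 5′ to 3′ on the strand of the gene. The Acta2 stretches are chr19:34255438-34255467 and chr19:34255388-34255417 (minus strand), before the RefSeq start but inside the first exon of a longer GENCODE transcript; the Actc1 stretch is chr2:114052888-114053125 (minus strand) and the Rgs5 stretch chr1:169655251-169655500 (plus strand).
Acta2, first box: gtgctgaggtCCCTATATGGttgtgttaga
Acta2, second box: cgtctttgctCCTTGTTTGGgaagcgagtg
Actc1: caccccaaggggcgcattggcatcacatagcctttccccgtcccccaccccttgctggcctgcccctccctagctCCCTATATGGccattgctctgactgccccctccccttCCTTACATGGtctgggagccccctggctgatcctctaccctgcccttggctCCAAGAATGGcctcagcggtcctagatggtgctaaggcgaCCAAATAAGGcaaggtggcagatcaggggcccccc
Rgs5: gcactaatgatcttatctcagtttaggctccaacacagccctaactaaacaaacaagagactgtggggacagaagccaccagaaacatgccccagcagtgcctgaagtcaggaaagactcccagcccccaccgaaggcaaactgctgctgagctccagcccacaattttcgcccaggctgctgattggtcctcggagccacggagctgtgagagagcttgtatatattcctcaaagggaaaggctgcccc
The Cnn1 and Des windows hold no such letters either. A match is a run of letters, not a measured binding site, and no match says only that these letters are not in this window.

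The first comparison asks how the levels of the 8 genes differ between the Myc-driven RPM tumours and the RPR2 tumours. Of the 8 genes, 6 were higher in RPM than in RPR2 and none was lower (limma on log2(FPKM + 1), Benjamini-Hochberg over 15719 genes, adjusted p under 0.05). Rgs5 differed most, by a fold of 6.68 on that scale, followed by Acta2 (4.12), Actc1 (4.02), Tagln (3.58), Des (3.30) and Pdgfrb (1.81). Cnn1 and Myh11, the smooth muscle proteins with the lowest levels, did not pass. The background is large: 18.4% of all genes tested were called higher in RPM and 22.8% lower, 41.2% together. The median difference of the 8 genes was 1.78 log2 units, against -0.06 for all genes tested. Without RPR2 replicate 3, 4 of the 8 were called (Rgs5, Acta2, Tagln and Des), against 16.4% of all genes called higher and 27.4% lower, with a median of 1.48 against -0.20. The summed level of the 8 genes was 184.62 to 373.76 FPKM in RPM (median 272.06), against 60.93, 54.44 and 60.89 FPKM in RPR2, so the groups did not overlap and RPR2 replicate 3 lay with the other RPR2 tumours. Acta2, Tagln and Rgs5 made up most of that sum. The narrower smooth muscle markers Cnn1 and Myh11 were near 1 FPKM, and Actc1 is chiefly a heart muscle gene, so the name of the set describes its members unevenly.

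**Figure D1:**
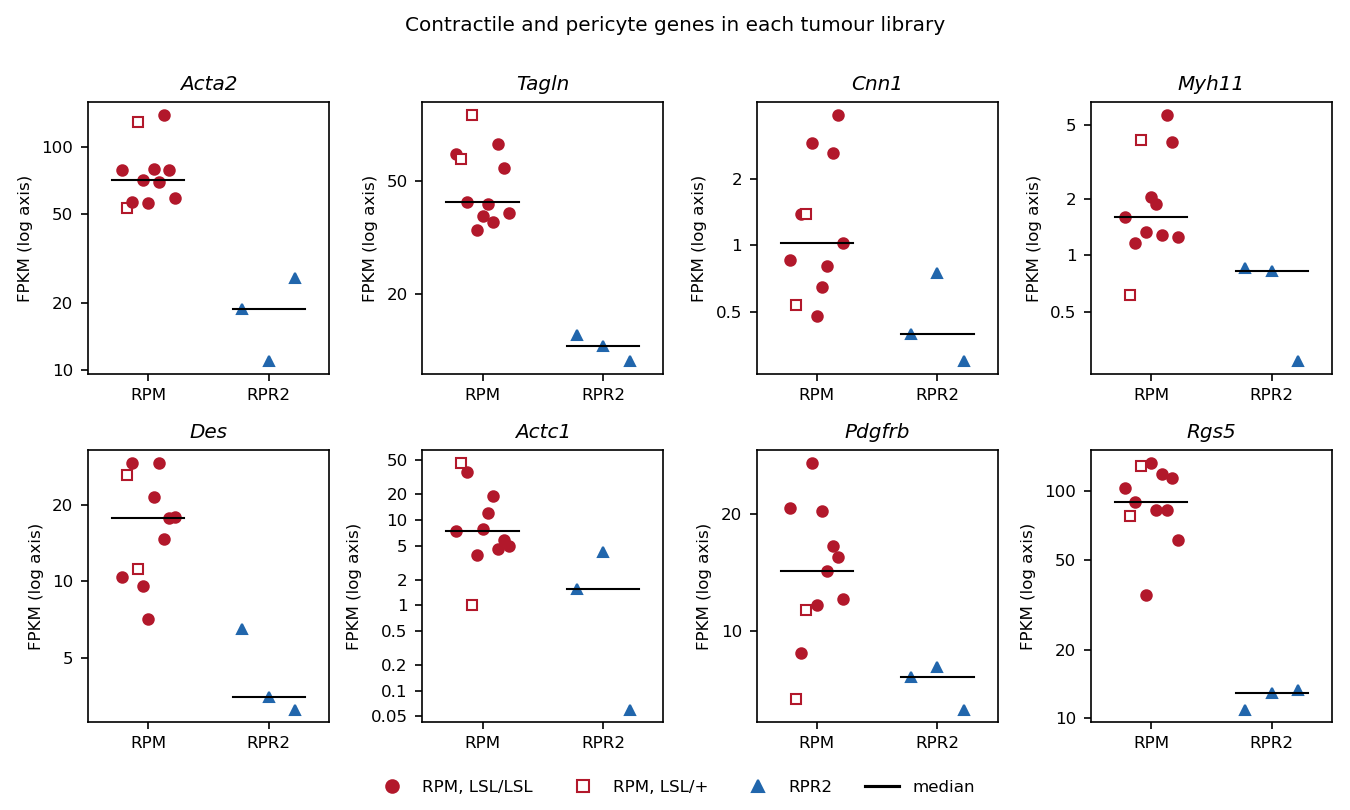
FPKM (log axis) of each of the 8 genes in 11 RPM and 3 RPR2 tumour libraries. Each symbol is 1 library, open squares are the 2 LSL/+ tumours, and bars are medians; Acta2, Tagln, Des and Rgs5 show no overlap between the models.

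Acta2 was the most abundant of the actin filament genes among the 8. It stood at 53.5, 71.0 and 139.9 FPKM (lowest, median and highest) in the RPM tumours, against 18.8, 10.98 and 26.0 FPKM in the RPR2 tumours. Its mean was 79.5 ± 29.1 FPKM in RPM (SD, n = 11) and 18.6 ± 7.53 FPKM in RPR2 (SD, n = 3). Every RPM tumour lay above every RPR2 tumour, which 11.1% of all genes tested did in this direction and 13.6% in the other. The log2 difference was 2.04 ± 0.295 (SE; limma, Benjamini-Hochberg adjusted p = 7.96e-05). RPM replicates 4 and 9, at 129.9 and 139.9 FPKM, stood well above the other RPM tumours, the next of which was at 80.2 FPKM.

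Tagln followed Acta2 in level. It was at 33.7, 42.1 and 86.0 FPKM in RPM (lowest, median and highest), against 14.3, 13.1 and 11.55 FPKM in RPR2. The groups did not overlap, and the 3 RPR2 tumours lay close together, with a mean of 13.0 ± 1.37 FPKM (SD, n = 3) beside 51.1 ± 16.6 FPKM in RPM (SD, n = 11). The log2 difference was 1.84 ± 0.251 (SE; limma, Benjamini-Hochberg adjusted p = 4.76e-05). RPM replicate 4, with LSL/+, was the highest for Tagln.

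Calponin and smooth muscle myosin, which mark differentiated smooth muscle more narrowly than Acta2 does, were near 1 FPKM in both models. Cnn1 was at 0.48, 1.03 and 3.89 FPKM in RPM (lowest, median and highest), against 0.40, 0.75 and 0.30 FPKM in RPR2. Myh11 was at 0.61, 1.60 and 5.70 FPKM in RPM, against 0.86, 0.83 and 0.27 FPKM in RPR2. The ranges overlap: 8 of 11 RPM tumours lay above all RPR2 tumours for Cnn1 and 10 of 11 for Myh11. Neither difference passed, at 0.65 (95% interval -0.074 to 1.375, adjusted p = 0.14) for Cnn1 and 0.88 (0.085 to 1.665, adjusted p = 0.0716) for Myh11 by limma with Benjamini-Hochberg adjustment. The low levels rest on an estimated 22 to 181 reads for Cnn1 in RPM and 16 to 38 in RPR2. With median-of-ratios scaling Myh11 passed (0.94, limma, Benjamini-Hochberg adjusted p = 0.042).

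Among the filaments of striated as well as smooth muscle, Des separated the models and Actc1 varied widely inside both. Des was at 7.06, 17.8 and 29.25 FPKM in RPM (lowest, median and highest), against 6.48, 3.51 and 3.12 FPKM in RPR2. The closest libraries were RPM replicate 6 at 7.06 and RPR2 replicate 1 at 6.48 FPKM, so the separation is narrow. The log2 difference of Des was 1.72 ± 0.380 (SE; limma, Benjamini-Hochberg adjusted p = 0.00224) and 1.56 without RPR2 replicate 3 (adjusted p = 0.0121).

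Actc1 was at 1.0, 7.39 and 47.0 FPKM in RPM (lowest, median and highest), against 1.57, 4.27 and 0.06 FPKM in RPR2. The level in RPR2 replicate 3 corresponds to about 2 reads. RPM replicates 2 and 3, at 47.0 and 36.3 FPKM, were far above the RPM median, and RPM replicate 4 was below 2 of the RPR2 tumours. Its log2 difference was 2.01 ± 0.775 (SE; limma, Benjamini-Hochberg adjusted p = 0.0497), just inside the threshold. It was 1.41 without RPR2 replicate 3 (limma, adjusted p = 0.214) and 0.94 without RPM replicates 2 and 3 as well (limma, adjusted p = 0.249). With tumours of 1 title number fitted as correlated it was 2.05 and not called (limma, adjusted p = 0.0546).

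Actin genes are near-identical in coding sequence, so their reads can be split between them in more than 1 way. The summed level of Acta1, Acta2, Actc1 and Actg2 was 69.9 to 157.03 FPKM in RPM, against 21.9, 16.3 and 28.1 FPKM in RPR2. Fitted as 1 feature, the sum was higher in RPM by 2.18 log2 units (limma, Benjamini-Hochberg adjusted p = 9.24e-06), in place of 2.04 for Acta2 and 2.01 for Actc1.

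The pericyte pair differed between the models by unequal amounts. Rgs5 was at 35.1, 89.9 and 133.75 FPKM in RPM (lowest, median and highest), against 10.9, 12.9 and 13.3 FPKM in RPR2. The 3 RPR2 tumours lay close together, and the lowest RPM tumour, replicate 5, was still above them. The log2 difference of Rgs5 was 2.74 ± 0.308 (SE; limma, Benjamini-Hochberg adjusted p = 8.25e-06), and 0.929% of all genes tested had a larger one. Without RPR2 replicate 3 it was 2.79 (limma, adjusted p = 5.1e-05).

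Pdgfrb was at 6.69, 14.3 and 27.1 FPKM in RPM (lowest, median and highest), against 7.65, 8.09 and 6.29 FPKM in RPR2. All but 1 of the RPM tumours were above the RPR2 tumours; RPM replicate 2, at 6.69 FPKM, fell among them. The log2 difference was 0.86 ± 0.310 (SE; limma, Benjamini-Hochberg adjusted p = 0.0378). It was not called without RPR2 replicate 3 (0.76, limma, adjusted p = 0.107), with TPM scaling (0.70, adjusted p = 0.185) or when tumours sharing a title number were fitted as correlated (0.85, adjusted p = 0.0813).

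**Figure D2:**
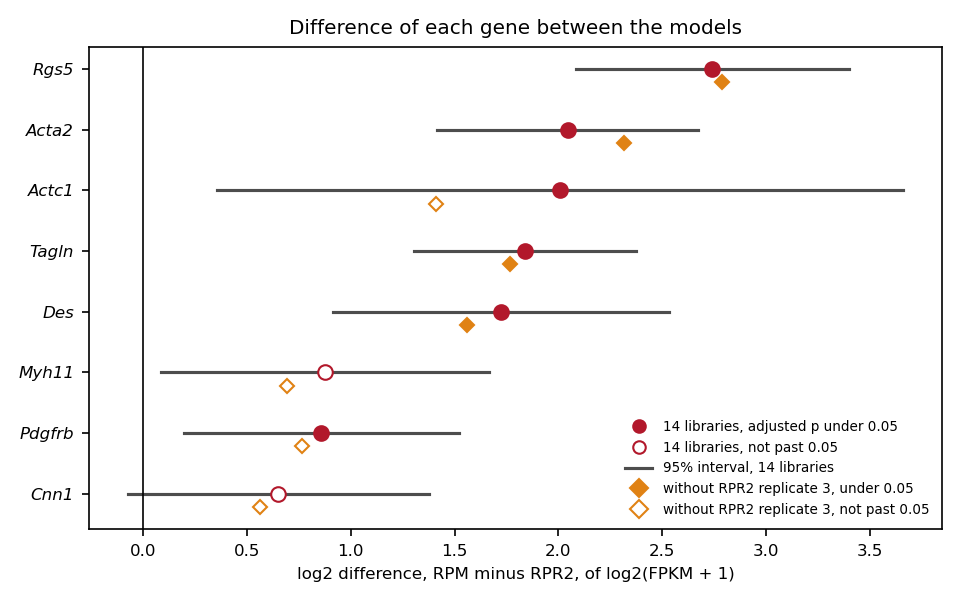
log2 difference of each gene, RPM minus RPR2, on the log2(FPKM + 1) scale with its 95% interval over 14 libraries (circles), and the value without RPR2 replicate 3 (diamonds). Filled symbols have an adjusted p under 0.05; Rgs5, Acta2, Tagln and Des are filled both ways.

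As the 8 genes differed by unequal amounts, the difference between each 2 of them within a library was compared between the models (28 pairs, two-sided exact permutation tests, smallest possible p 0.00549). No pair passed Benjamini-Hochberg adjustment over the 28 (smallest adjusted p = 0.0684 by exact permutation), and 10 were under 0.05 unadjusted. The ratio of Rgs5 to Pdgfrb was 1.29 to 11.62 in RPM (median 7.34), against 1.43, 1.60 and 2.11 in RPR2. RPM replicate 5, which had the lowest Rgs5 and the highest Pdgfrb of the RPM tumours, lay just below the RPR2 values, and every other RPM tumour lay above them. Without that tumour, left out after the data were seen, 9 of the 28 pairs passed. Among them was Pdgfrb minus Rgs5, at -2.79 in RPM and -0.68 in RPR2 (exact permutation, adjusted p = 0.028). The tumour left out was the only RPM tumour not above the RPR2 tumours in the ratio of Rgs5 to Pdgfrb. Its removal therefore fixed the unadjusted p of this pair at the smallest possible value, so the pass is no support for a difference. Acta2 minus Cnn1 also passed without RPM replicate 5, at 5.14 in RPM and 3.66 in RPR2 (exact permutation, adjusted p = 0.0435). With any other single library left out, no pair passed. Cnn1 was near or below 1 FPKM in most libraries, where log2(FPKM + 1) understates its differences. As a percentage of Acta2 FPKM over all libraries, Cnn1 overlapped, at 0.81 to 4.9 in RPM against 2.13, 6.83 and 1.15 in RPR2. The ratio of Acta2 to Tagln was 0.89 to 2.11 in RPM and 0.84 to 2.25 in RPR2, and its difference was 0.20 log2 units (exact permutation p = 0.44).

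The other genes of the contractile apparatus did not move together. Over all genes tested 18.4% were higher in RPM and 22.8% lower, with a median difference of -0.06. Of 28 listed contractile genes 27 were tested, 6 were higher and 4 lower, with a median of 0.18. The higher ones included Myl9, the regulatory light chain of smooth muscle myosin, at 12.9 to 29.75 FPKM in RPM (median 22.3) against 7.92, 7.19 and 6.30 FPKM in RPR2. The log2 difference of Myl9 was 1.48 ± 0.214 (SE; limma, Benjamini-Hochberg adjusted p = 8.05e-05). Fhl1, a LIM protein of muscle (1.54), and Aoc3, an amine oxidase of smooth muscle and endothelium (1.30), were also higher, as were Actg2, Nexn and Mustn1. The 4 lower genes were Csrp1, Tpm1, Synm and Cnn2. Csrp1 fell by 1.47 and Tpm1, which encodes a tropomyosin of many cell types, by 1.29 log2 units. Tpm1 stood at 54.3 to 134.3 FPKM in RPM, against 186.9, 164.5 and 482.9 FPKM in RPR2, with its highest value in RPR2 replicate 3. The summed level of this list was 427.78 to 755.17 FPKM in RPM, against 627.06, 654.29 and 1066.57 FPKM in RPR2, opposite in direction to the 8 genes and overlapping. Without RPR2 replicate 3, 7 of the 27 were higher and 3 lower, with a median of 0.12, against 16.4% and 27.4% of all genes.

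Of the regulators that bind or partner at CArG boxes, 6 of 7 listed genes were tested. None was called higher in RPM, where 5 of the 6 differences were negative. The 2 called lower, Mrtfb and Elk4, stand beside 22.8% of all genes called lower. Srf itself was at 8.26, 11.5 and 16.1 FPKM in RPM (lowest, median and highest), against 17.2, 16.95 and 8.03 FPKM in RPR2, a log2 difference of -0.17 (limma, adjusted p = 0.569). Mrtfb was at 0.65 to 3.8 FPKM in RPM, against 13.0, 10.5 and 5.19 FPKM in RPR2, and fell by 1.46 (limma, Benjamini-Hochberg adjusted p = 0.00143). Elk4, an ETS partner of Srf, fell by 1.21 (limma, adjusted p = 0.002). Myocd did not pass the filter and was at 0.09 to 0.73 FPKM in RPM, against 0.19, 0.06 and 0.04 FPKM in RPR2.

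Of 20 other pericyte genes listed, 18 were tested, and 8 were higher and 2 lower in RPM, with a median difference of 0.74, against 18.4% higher and 22.8% lower and a median of -0.06 over all genes tested. Ndufa4l2, a mitochondrial protein induced in low oxygen and abundant in pericytes, was at 8.03 to 36.8 FPKM in RPM (median 17.8), against 3.95, 3.44 and 3.90 FPKM in RPR2, and its log2 difference was 1.94 ± 0.349 (SE; limma, Benjamini-Hochberg adjusted p = 0.000471). Postn, a matrix protein also made by fibroblasts (1.13), and Abcc9, the regulatory subunit of a pericyte potassium channel (1.11), were higher too. Rgs4, of the same family as Rgs5, went the other way. It was at 2.18 to 25.9 FPKM in RPM (median 5.80), against 40.5, 30.7 and 36.6 FPKM in RPR2, and fell by 2.38 (limma, adjusted p = 0.0012). The second lower gene was Anpep, a peptidase found on many cell types. Without RPR2 replicate 3, 4 of the 18 were higher (Ndufa4l2, Postn, Abcc9 and Cspg4) and 1 was lower (Rgs4), with a median of 0.45, and the share called higher was then near the 16.4% of all genes.

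Of 6 listed genes of the PDGF family, 4 ligands with Pdgfra and Pdgfrl, 5 were tested, 1 was higher and 2 were lower in RPM, all of them ligands. Over all genes tested, 18.4% were called higher and 22.8% lower. Pdgfd did not pass the filter. Pdgfb, the ligand of Pdgfrb, was at 1.5 to 6.79 FPKM in RPM (median 3.87), against 7.70, 11.96 and 6.74 FPKM in RPR2, and fell by 1.04 (limma, Benjamini-Hochberg adjusted p = 0.025). Pdgfa, the ligand of the alpha receptor, was at 2.02 to 9.38 FPKM in RPM, against 51.7, 32.3 and 18.45 FPKM in RPR2, and fell by 2.35 (adjusted p = 0.000121). Pdgfc, also a ligand of the alpha receptor, was at 1.03 to 4.75 FPKM in RPM, against 0.73, 0.37 and 0.54 FPKM in RPR2, and was higher by 1.23 (limma, adjusted p = 0.00308). Pdgfrb and its ligand Pdgfb thus differed in opposite directions. The calls of the 3 ligands held without RPR2 replicate 3, while that of Pdgfrb did not.

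**Figure D3:**
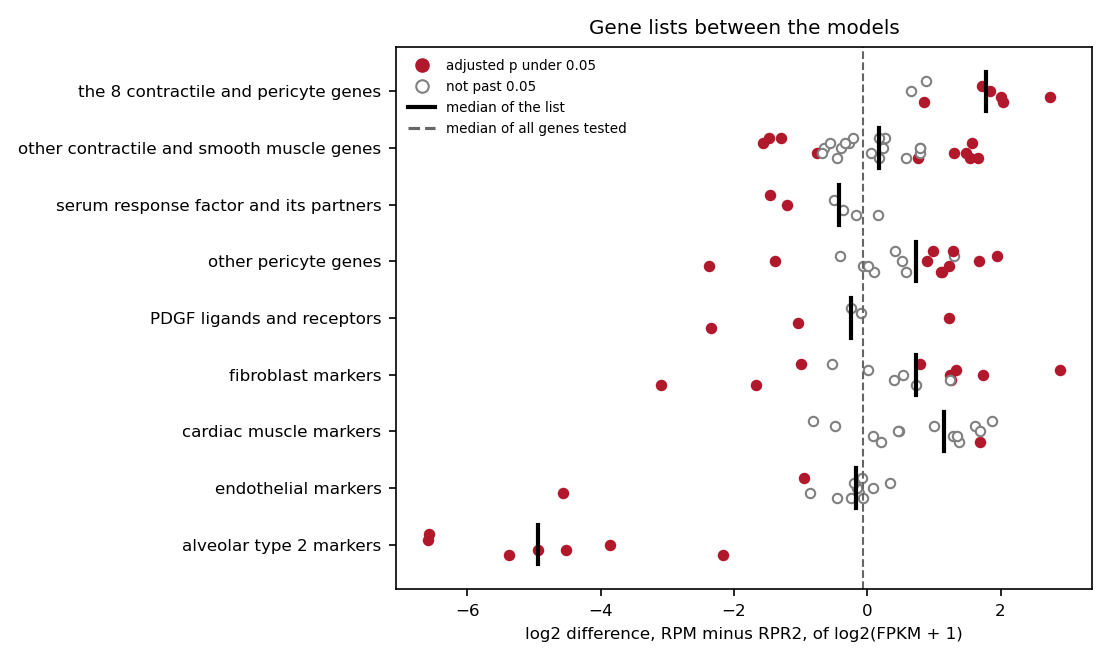
log2 difference, RPM minus RPR2, on the log2(FPKM + 1) scale of each tested gene of 9 lists (1 circle each). The 8 contractile and pericyte genes have a median of 1.78, the other contractile genes 0.18, the other pericyte genes 0.74 and all genes tested -0.06.

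Markers of other cell types moved with the same comparison, and their part in the results was not tested. Their counts stand beside 18.4% of all genes called higher in RPM and 22.8% called lower. Of 15 fibroblast markers 6 were higher in RPM and 3 lower (Dcn, Gsn and Tcf21), with a median of 0.73, and their summed level was 253.79 to 641.44 FPKM in RPM, against 361.65 to 573.0 FPKM in RPR2. Col3a1, a fibrillar collagen, was at 70.0 to 173.59 FPKM in RPM, against 67.8, 46.3 and 19.2 FPKM in RPR2. Fn1, the marker of this list with the highest mean, was not called. It was at 45.6 to 173.39 FPKM in RPM, against 126.79, 88.05 and 400.88 FPKM in RPR2. Dcn was at 1.11 to 29.86 FPKM in RPM, against 117.48, 77.08 and 41.11 FPKM in RPR2. Of 12 endothelial markers none was higher and 2 were lower in RPM (Vwf by 4.56 and Tek by 0.95 log2 units, limma). Their sum was 75.3 to 189.2 FPKM in RPM, against 382.22, 461.9 and 141.23 FPKM in RPR2. Without Vwf the sums were 74.25 to 183.81 FPKM in RPM, against 144.41, 132.53 and 112.91 FPKM in RPR2, which lay inside the RPM range. Egfl7, an endothelial secreted protein, overlapped between the models at 22.0 to 58.65 FPKM in RPM against 23.0, 29.7 and 44.4 FPKM in RPR2. All 7 alveolar type 2 markers were lower in RPM, with sums of 15.6 to 870.32 FPKM in RPM, against 1222.35 to 51214.65 FPKM in RPR2, and 3 of 5 alveolar type 1 markers were lower. No macrophage marker of 7 was called. Of 8 neuroendocrine markers 1 was higher (Uchl1) and 1 lower (Calca), and their sum was 287.63 to 1559.23 FPKM in RPM and 65.2 to 3784.03 FPKM in RPR2. Of 14 tested cardiac markers 1 was higher in RPM (Actn2), and the 2 tested skeletal muscle markers and 2 tested mesothelial markers were not called. No marker of these lists was at 0 in all libraries. Without RPR2 replicate 3, 3 alveolar type 2 markers and 4 neuroendocrine markers were lower and no neuroendocrine marker was higher. In that setting 7 fibroblast markers were higher and 3 lower, and the shares of all genes were 16.4% higher and 27.4% lower.

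Among the RPM tumours the 8 genes did not vary as 1 set. Of 28 pairs 15 correlated positively and 13 negatively over the 11 tumours, with a median Pearson r of 0.02 on log2(FPKM + 1). Acta2 and Myh11 were the 1 pair past the threshold (r = 0.856, permutation p = 0.00091, Benjamini-Hochberg adjusted p = 0.0255 over 28 pairs). By rank the pair did not pass (rho = 0.791, permutation p = 0.00565, adjusted p = 0.158). The Pearson relation leaned on RPM replicates 4 and 9, the tumours highest in Acta2, without which r was 0.60 (permutation p = 0.0701). Acta2 and Tagln gave r = 0.674 (rho = 0.473, permutation p = 0.0209 and 0.145, adjusted p = 0.138 and 0.44) and 0.143 without the same tumours.

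Des and Actc1 gave the second highest Pearson r, which did not pass. It was 0.705 (rho = 0.661, permutation p = 0.0155 and 0.0305, adjusted p = 0.138 and 0.25), and 0.83 without RPM replicates 5 and 6. Actc1 gave negative values with Acta2 (r = -0.67) and Myh11 (r = -0.68), neither of which passed (permutation, adjusted p = 0.138 for both), and without RPM replicates 4 and 9 r was -0.49 and -0.56. The pericyte markers Pdgfrb and Rgs5 gave r = -0.37, with no pair of theirs past the threshold.

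**Figure D4:**
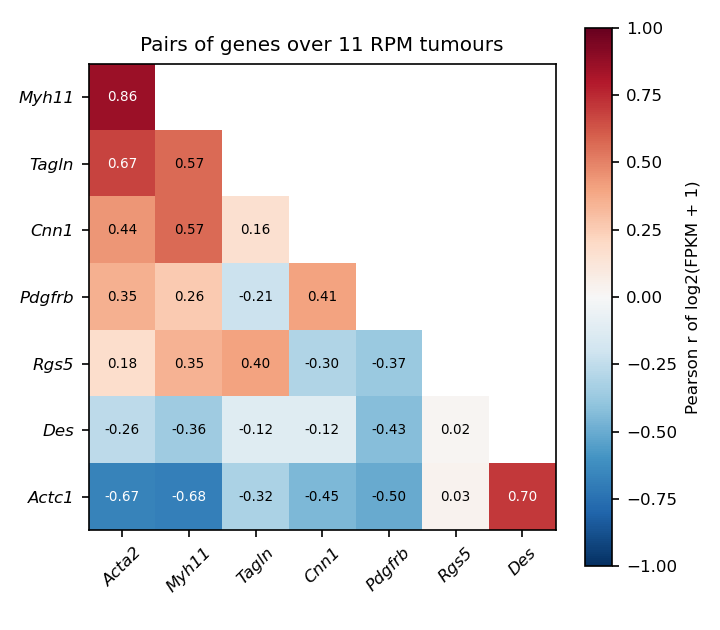
Pearson r of log2(FPKM + 1) over the 11 RPM tumours for each of the 28 pairs of genes (colour scale from -1 to 1). Acta2 and Myh11 have the highest r, 0.86, and Des and Actc1 follow at 0.70.

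Each gene was then set against the mean of 5 lists over the 11 RPM tumours, 40 relations in all, adjusted together. Actc1 followed 17 cardiac muscle genes (r = 0.881, permutation p = 0.00039, Benjamini-Hochberg adjusted p = 0.0124). By rank the relation was rho = 0.70 (permutation p = 0.0208, adjusted p = 0.0831). Des followed them as well (r = 0.772, permutation p = 0.00573, adjusted p = 0.0327), with rho = 0.711 (permutation p = 0.0174, adjusted p = 0.0831). RPM replicates 2 and 3 held the most cardiac transcript. Myl7, the atrial light chain of myosin, was at 84.1 and 50.2 FPKM in them, and Myl4, also an atrial light chain, at 84.5 and 52.6 FPKM, against RPM medians of 5.94 and 8.50 FPKM. Without these tumours r was 0.683 for Actc1 (permutation p = 0.0396) and 0.656 for Des (permutation p = 0.0561). The summed level of all 20 cardiac genes was 13.4 to 485.09 FPKM in RPM, against 34.7, 51.4 and 40.4 FPKM in RPR2. RPR2 replicates 1 and 2 were thus not free of cardiac transcript. In RPR2 replicate 3 most of the sum was Myh6 (19.4 FPKM) and Cox6a2 (13.82 FPKM), while Myl7 was at 0.16 and Tnnc1 at 0.22 FPKM. Acta2 (r = -0.46) and Rgs5 (r = -0.10) did not follow the cardiac genes, with adjusted p of 0.349 and 0.854 by permutation. Myh11 ran against them by rank (rho = -0.79, permutation, adjusted p = 0.0446) but did not pass by Pearson r (-0.66, adjusted p = 0.0948). Without RPM replicates 2 and 3 and RPR2 replicate 3, Acta2, Tagln, Des, Pdgfrb and Rgs5 were called higher in RPM than in RPR2, with Acta2 at 2.415, Des at 1.39 and Rgs5 at 2.81 log2 units. Of 15201 genes tested in that setting, 2695 were called higher and 4272 lower.

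**Figure D5:**
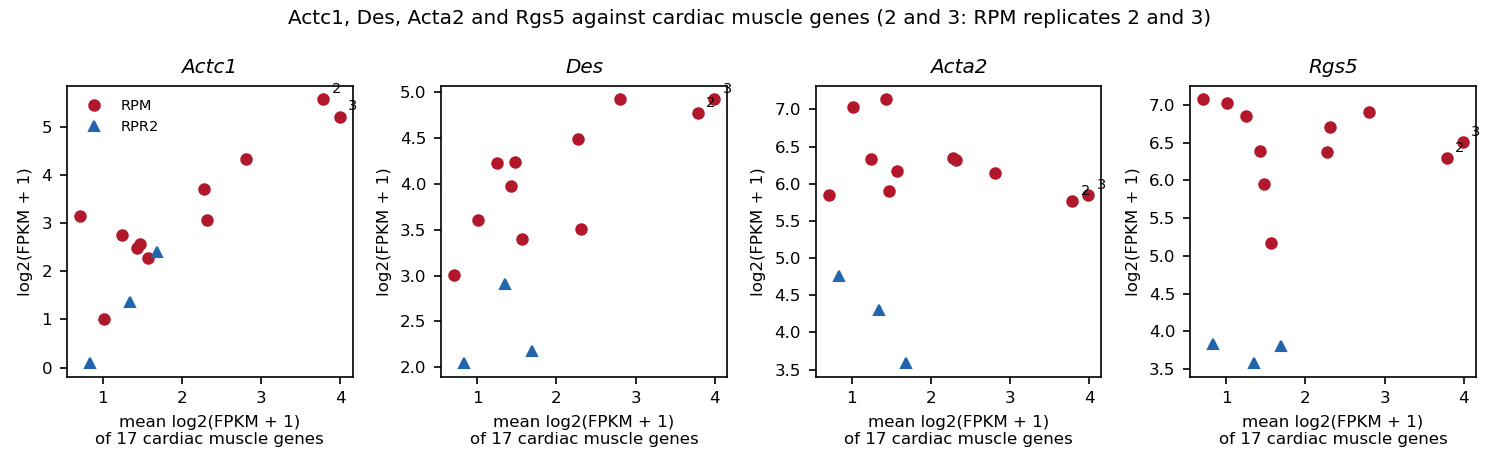
log2(FPKM + 1) of Actc1, Des, Acta2 and Rgs5 against the mean of 17 cardiac muscle genes on the same scale, 1 symbol per library (circles, 11 RPM; triangles, 3 RPR2). Actc1 and Des are highest in RPM replicates 2, 3 and 8, where the cardiac mean is highest, while Acta2 and Rgs5 are not.

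Pdgfrb followed the stromal lists. With the mean of 18 other pericyte genes it gave r = 0.876 (permutation p = 0.00062, adjusted p = 0.0124) and rho = 0.845 (permutation p = 0.00198, adjusted p = 0.0264). With 15 fibroblast markers it gave r = 0.797 (permutation p = 0.00333, adjusted p = 0.0283) and rho = 0.927 (permutation p = 0.00014, adjusted p = 0.0056). Without the 2 tumours farthest on the axis of the list, r was 0.884 and 0.893. With 12 endothelial markers r was 0.752 (permutation p = 0.00822, adjusted p = 0.0411), and 0.669 without RPM replicates 5 and 6 (permutation p = 0.0523). Rgs5 had negative values against the same lists, -0.22 for other pericyte genes, -0.35 for fibroblast markers and -0.68 for endothelial markers, none past the threshold (permutation, adjusted p = 0.764, 0.579 and 0.0608). Rgs5 thus did not follow the other pericyte genes over these tumours, and which cells its level came from was not tested. Whether Pdgfrb and Rgs5 differ in these relations was not tested either. RPM replicate 5 had the highest Pdgfrb and the lowest Rgs5 of all RPM tumours, so the 2 genes were closest in level there (ratio 1.29).

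Myh11, Cnn1 and, by rank, Acta2 followed the other contractile genes. Against the mean of 26 of them, r was 0.792 for Myh11 (permutation p = 0.00316, adjusted p = 0.0283) and 0.779 for Cnn1 (permutation p = 0.00407, adjusted p = 0.0283), and by rank their adjusted p was 0.0831 and 0.0546. Acta2 gave r = 0.72 (permutation p = 0.0115, adjusted p = 0.051) and rho = 0.809 (adjusted p = 0.0394). Without RPM replicates 2 and 9 r was 0.566 for Myh11, 0.762 for Cnn1 and 0.498 for Acta2. Actc1 ran against this list (r = -0.78, rho = -0.84, permutation, adjusted p = 0.0283 and 0.0264), and Tagln showed little relation to it (r = 0.197, adjusted p = 0.774).

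The genes whose levels were most like each member over the 11 RPM tumours, by Pearson r among 13228 named genes, are a description with no test. For Myh11 the first was Lmod1, leiomodin of smooth muscle (r = 0.908), which was at 0.28 to 1.61 FPKM in RPM against 0.13, 0.25 and 0.83 FPKM in RPR2. For Des they were Ankrd1, a cardiac ankyrin repeat protein (0.856), Snord42b (0.855) and Casq2, the calcium store protein of heart muscle (0.843). Casq2 (0.903) and Mybpc3, cardiac myosin-binding protein C (0.902), came after Ranbp1 (0.913) for Actc1. Ndst2, Maml2 and Wwc2 were most like Pdgfrb (0.969, 0.958 and 0.948). Rgs5 was most like Slco5a1 (0.912), Tspan7 (0.907) and Dpf1 (0.902). Slco5a1 was also higher in RPM, at 1.19 to 5.80 FPKM, against 0.22, 0.06 and 0.01 FPKM in RPR2, whereas Tspan7 overlapped, at 33.0 to 99.35 FPKM in RPM against 86.5, 73.9 and 33.4 FPKM in RPR2. Vsig10l, Sdr42e1 and Mir344e were the first 3 for Acta2 (0.942, 0.87 and 0.868), Pgf, Itgb1 and Herpud1 for Tagln (0.884, 0.847 and 0.831), and Erich2, Bves and H2-Q10 for Cnn1 (0.883, 0.849 and 0.84).

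The second comparison asks whether the genes differed with the Myc allele inside the RPM model, 9 LSL/LSL tumours against 2 LSL/+ tumours. No member was called, and 0.0258% of 15485 genes were (4 lower and none higher with LSL/LSL; limma, Benjamini-Hochberg), with 2604 (16.8%) at an unadjusted p under 0.05. Tagln was at 33.7, 41.6 and 67.7 FPKM in LSL/LSL tumours (lowest, median and highest), against 59.8 and 86.0 FPKM in LSL/+ tumours, a log2 difference of -0.67 ± 0.264 (SE; limma, adjusted p = 0.271). Pdgfrb was at 8.77, 15.6 and 27.1 FPKM in LSL/LSL tumours, against 6.69 and 11.4 FPKM in LSL/+ tumours, a log2 difference of 0.77 ± 0.337 (limma, adjusted p = 0.288). The other 6 genes had adjusted p of 0.683 to 0.998. The 2 LSL/+ tumours were themselves unlike. RPM replicate 2 was the highest RPM tumour for Actc1, at 47.0 FPKM, and RPM replicate 4 the lowest, at 1.0 FPKM. Acta2 was at 53.5 and 129.9 FPKM and Myh11 at 0.61 and 4.17 FPKM in the same 2 tumours.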

How the data were processed

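Poly(A)-selected, stranded libraries were sequenced from one end, per the labels' protocols and the design text. The values are FPKM per gene and library as deposited by the authors. RSEM 1.2.12, Bowtie 1.0.1 and mm10 are named, without settings, in the submitters' processing notes. Any scaling between libraries is not given in the sources used here. Reads shared by several genes are divided among them by RSEM, which bears on the actins. Symbols were matched for 46005 of 46517 identifiers; 1 reporter listed at 0 in all libraries was left out. Depth was estimated from the spacing of low values; FPKM give no counts, so no count model was fitted.

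Values were tested as log2(FPKM + 1), so folds of low genes are understated. Genes that reached an FPKM of 1 in 3 of 14 libraries (2 of 11 within RPM) were tested with limma 3.58.1 under R 4.3.3 (lmFit and eBayes with a trend, two-sided, adjusted by Benjamini-Hochberg, threshold 0.05), which was checked on simulated data. Relations used 100000 permutations, two-sided, repeated without the 2 tumours farthest on the x axis. Promoter windows are RefSeq's.

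The 8 genes and the lists were chosen with earlier results of these data known. From contractile, pericyte, Srf and PDGF lists up to 4 called genes with the smallest p are named (5 or fewer called genes per list all named); from marker lists, up to 2 of the highest mean. Other names were chosen after their values were seen. As alternatives the pseudocount was 0.1 or 0.01, the filter was dropped or set at a mean of 5 FPKM, and scaling was TPM, median-of-ratios or quantile. Further ones were array weights, title number as a random effect, LSL/LSL tumours alone, exact permutation, summed actins and leaving out each library. Those without RPR2 replicate 3 and RPM replicates 2 and 3, of relations without each tumour, and of the 28 differences were chosen after seeing the data.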

Additional observations from a re-analysis of the deposited data

Results flagged for a closer look

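Acta2 in RPM replicate 9 was at 139.88 FPKM, and the next of the 9 LSL/LSL tumours was at 80.16 FPKM. On the log2(FPKM + 1) scale its gap to that tumour was 0.615 of the range of the 9 tumours, above Dixon's 95% critical value. The other 7 genes had no tumour past that value. Chance flags about 1 in 20 groups, and 8 were looked at. Myh11 was also highest in RPM replicate 9, at 5.70 FPKM.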

How the results depend on the processing

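Acta2, Tagln, Des and Rgs5 were called higher in RPM under all 25 alternatives fitted across genes, Pdgfrb under 14 and Actc1 under 10 of 25, Myh11 under 6 and Cnn1 under none of 24, and no member changed direction in them. By exact permutation all 8 had an unadjusted p under 0.05, from 0.00549, the smallest possible, to 0.0385. That test was not run on other genes, so this count has no share of all genes to be set against. TPM scaling moved the median difference of all genes to -0.23, against -0.06. It called 4 members, with 1878 of 15719 genes higher, against 2897 in the main fit. Median-of-ratios and quantile scaling each called 7 members, with 3361 and 3657 genes higher. Fitting tumours of 1 title number as correlated called 4, without Pdgfrb and Actc1, with 2584 genes higher. In these settings the member counts rose and fell with the calls over all genes. Of the calls, 44.7% were higher in RPM, against 34.4% with TPM scaling. Genes called lower were 3586, against 2171 with the filter at a mean FPKM of 5, 6577 with array weights and 2360 without RPR2 replicate 2. Leaving out each library gave 2276 to 3033 genes higher, 2360 to 4227 lower and 4 to 6 members higher. The 28 differences between members gave 0 to 9 calls, 9 of them without RPM replicate 5.

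For LSL/LSL against LSL/+, no member was called in 158 alternative values (lowest adjusted p = 0.153, limma). Genes higher were 4 with a pseudocount of 0.1 and 10 with 0.01; genes lower were 1 with either, 30 with no filter, 1 with the filter at a mean FPKM of 5, 1 with TPM scaling and 0 with array weights. Leaving out each library gave 0 to 6 genes higher and 0 to 6 lower. The relation of Acta2 with Myh11 was past the threshold in no fit with the first library of each title number (0 pairs) or with median-of-ratios scaling (0 pairs); leaving out each tumour gave 0 to 1 pairs, and 0 without RPM replicate 2, 3, 4, 9 or 10. Causes of these changes were not tested. No paired analysis was possible because the labels give no replicate numbers that the models share. With 3 RPR2 and 2 LSL/+ tumours the spread of those groups is poorly known, and values of Cnn1 and Actc1 near 1 FPKM rest on few reads. Those of Myh11, which has a longer transcript, rest on an estimated 77 to 720 reads in RPM and 41 to 130 in RPR2.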

Other observations

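RPM replicate 3 had the highest level of 8 of the 10 listed skeletal muscle genes. Some of them were also measurable elsewhere: Mylpf, a fast skeletal light chain, was at 51.4 FPKM there and at 2.59 FPKM or more in every other RPM tumour, against 3.76 to 7.07 FPKM in RPR2, and Tnni2, fast skeletal troponin I, was at 33.8 FPKM there, against 7.38 FPKM in RPR2 replicate 3. Acta1, the alpha-actin of skeletal muscle, was at 44.84 FPKM there and at most 1.79 FPKM in any other RPM tumour, against 0.10 to 0.35 FPKM in RPR2. Tnnt3, fast skeletal troponin T, was at 28.4 FPKM there, against 0.00 to 2.07 FPKM in the other RPM tumours and at most 0.21 FPKM in RPR2. Myod1 and Myog, the factors of muscle precursors, were at most 0.11 and 0.14 FPKM in RPM and listed at 0 in RPR2. These genes were chosen after their values were seen.

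Myh6, the alpha myosin heavy chain of heart muscle, was higher in RPR2 replicate 3 than in any other library. It was at 19.4 FPKM there, above its 8.15 FPKM maximum in RPM, while Myl7 was at 0.16, Nppa, the atrial natriuretic peptide gene, at 0.05 and Actc1 at 0.06 FPKM in the same library. Cox6a2, another gene of the cardiac list, had an RPM median of 7.74 FPKM and was also higher in RPR2 replicate 3, at 13.82 FPKM, than in RPR2 replicates 1 and 2, at 6.55 and 4.76 FPKM. This too was chosen after the values were seen.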
